A study of Drosophila melanogaster with 4 samples.

Results

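Integrins are heterodimeric receptors that fasten cells to the extracellular matrix. An alpha chain and a beta chain bind the matrix together on the outside of the cell, and the short tail of the beta chain is tied to actin inside it by talin, vinculin, paxillin and the complex of ILK, PINCH and parvin. In *Drosophila* the beta chain βPS pairs with each of the alpha chains and holds muscle, tendon and wing epithelia to the matrix, while blood cells use integrins to spread, migrate and engulf particles. The 10 genes described here were chosen by symbol and role: the beta chains *mys* and *Itgbn*, the alpha chains *mew*, *if* and *scb*, and *rhea*, *Ilk*, *parvin*, *Vinc* and *Pax* on the cytoplasmic side. All 10 were found among the 13909 genes with quantified transcripts, and all 10 had enough counts to be tested, out of 8182 tested genes.

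RNA-seq was performed on total RNA of S2R+ cells, a male and adherent line with blood cell features that was derived from late embryos. The enhancer mutant, sequenced in 2 libraries, carries a CRISPR-Cas9 deletion of the enhancer in intron 5 of *Notch* and was expanded as a homozygous clone from puromycin-selected, transfected cells. The wild-type S2R+ cells, also sequenced in 2 libraries, carry no deletion, and an unedited clone taken through the same selection was not analysed here, so the deletion and the history of the clone cannot be told apart. The libraries of each condition are called independent, but nothing states whether they came from separate cultures, so the tests measure the spread between these libraries.

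The deposited estimated counts summed to between 24880286 and 29605002 in the mutant libraries and between 16240543 and 19410313 in the wild-type libraries. *Notch*, which holds the deleted enhancer, had 2.80 and 2.36 TPM in the mutant libraries, against 15.0 and 12.5 TPM in the wild-type libraries (log2 fold change -1.96, SE 0.13). TPM scales counts by transcript length and by the total of the library. It is the level per length and was used to compare genes with each other. Changes of 1 gene were tested with edgeR's quasi-likelihood test on counts scaled by TMM (trimmed mean of M values). They are given as CPM, which here means counts scaled by library size and by the TMM factor. Here "called" means that the adjusted p was under 0.05 and the log2 fold change 0.5 or more in size. The scale matters for small changes, because the median log2 fold change of all tested genes was -0.0037 with TMM, -0.44 in TPM and -0.20 with library sizes alone. With 2 libraries against 2, an exact permutation test of a single value cannot give a p below 0.333.

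Blood cell genes of S2R+ cells were present in part. The transcription factors *srp* and *ush* and the receptor *crq* were above 30 TPM in every library, while *NimC1* and *eater* were below 0.5 TPM in every library. Of 9 muscle markers, 8 were below 1 TPM in every library, and *Mef2* was the exception. In these bulk samples, fewer cells of a kind and less RNA per cell cannot be told apart.

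Among the members, most of the receptor genes differed between the conditions, and none of the 5 cytoplasmic genes reached the threshold. Of the 10 members, 4 were called: *mys* and *mew* were higher and *scb* and *if* lower in the mutant. Across all tested genes 27.9% were called, 15.3% lower and 12.6% higher, so 4 of 10 is not far above this background. All 4 called members were integrin chains, out of 5 chains, and none of the 5 cytoplasmic members was called, a division seen after the values were known and not tested. It turns on the threshold of 0.5, since *parvin* lay just short of it at 0.49. Nor does it extend to the related cytoplasmic genes described below. Of these, 4 of 11 tested adaptors and 2 of 14 kinases and GTPase regulators were called. By adjusted p alone 6 members passed, *Ilk* and *parvin* among them, as did 48.7% of all tested genes. In CPM, 7 members had mutant values that all lay above the wild-type values, as did 37.7% of all tested genes, 2 had values that all lay below, as did 37.9%, and *rhea* overlapped. The median log2 fold change was 0.23 over the 10 members and -0.0037 over all tested genes. The genes span a wide range of levels, from *Vinc*, with 126 and 116 TPM in the mutant libraries and 151 and 155 TPM in the wild-type libraries, down to *if*, below 0.5 TPM in every library.

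**Figure D1:**
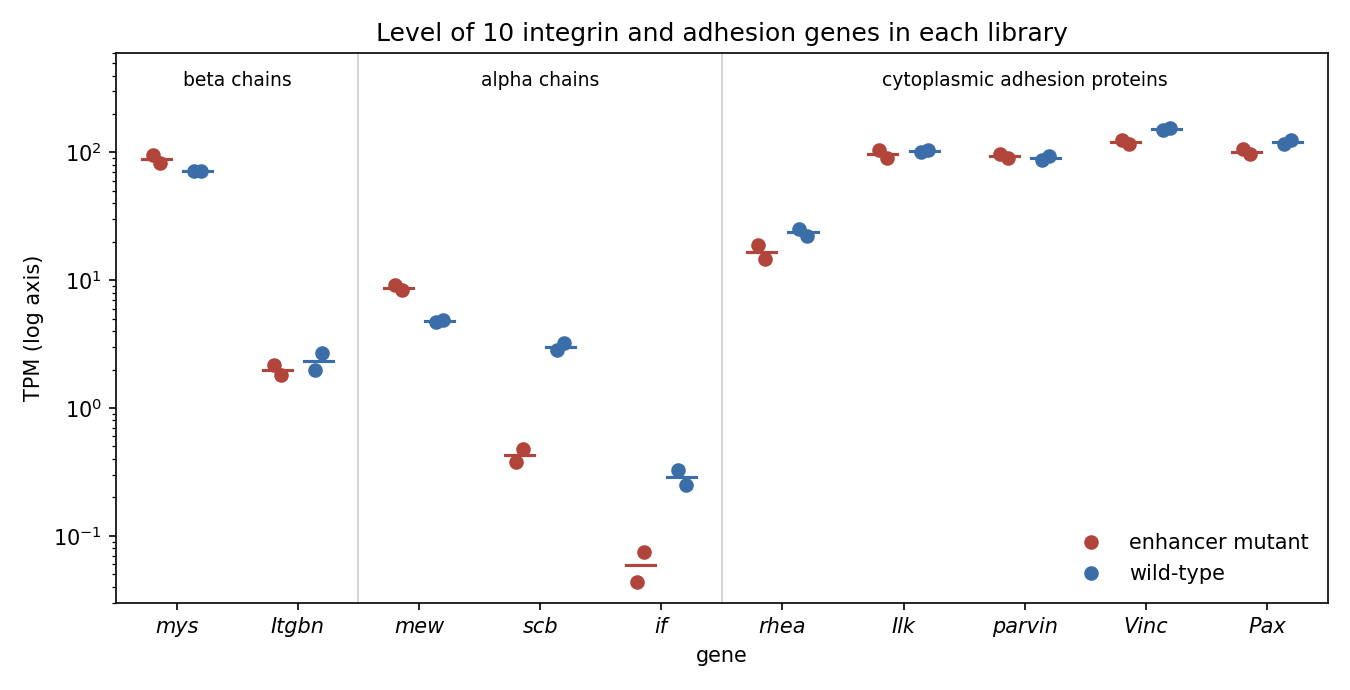
TPM (log axis) of the 10 members in each library, with enhancer mutant libraries left of wild-type libraries for each gene; points are libraries and bars are means of 2 libraries. *mew* sits higher in the mutant, while *scb* and *if* sit lower, and *Ilk* and *parvin* overlap between conditions.

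*mys* (FBgn0004657, chromosome X from 8061645 to 8070237 in dm6, plus strand) encodes βPS, the main beta chain. It had 94.99 and 82.1 TPM in the mutant libraries, against 71.9 and 70.9 TPM in the wild-type libraries. In CPM it averaged 488 ± 20.03 in the mutant and 288 ± 14.2 in wild-type (SD, n = 2 each), a 1.70-fold higher level (log2 fold change 0.76, SE 0.095, adjusted p = 0.000119 from edgeR). Both mutant libraries lay above both wild-type libraries on either scale. On the TPM scale the log2 ratio was smaller, 0.31, and limma did not call it there, but relative to the median of all genes on that scale it was 0.75.

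*Itgbn* (FBgn0010395, chromosome 2L, 21053033 to 21058044, plus strand) encodes βν, the other beta chain of the fly, which is known for the engulfment of apoptotic cells and bacteria by blood cells. It was far less abundant than *mys*, with 2.18 and 1.80 TPM in the mutant libraries and 1.99 and 2.72 TPM in the wild-type libraries. The conditions overlapped in TPM, and the gene was not called (log2 fold change 0.24, 95% interval -0.15 to 0.63, adjusted p = 0.277 from edgeR). *mys* made up 97.8% and 97.9% of the beta chain TPM in the mutant libraries and 97.3% and 96.3% in the wild-type libraries.

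*mew* (FBgn0004456, chromosome X, 13214409 to 13258490, minus strand) encodes αPS1, which binds laminin and is used by tendon cells and the dorsal wing epithelium. It had 9.15 and 8.37 TPM in the mutant libraries, against 4.70 and 4.89 TPM in the wild-type libraries. In CPM it averaged 58.63 ± 0.040 in the mutant and 23.9 ± 0.52 in wild-type (SD, n = 2 each), a 2.45-fold higher level (log2 fold change 1.295, SE 0.091, adjusted p = 1.90e-06 from edgeR). The libraries of a condition lay close together, and the conditions did not overlap on either scale. An exon of *mew* overlaps the same-strand gene *CG15742*, and reads from that stretch cannot be told apart.

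*scb* (FBgn0286785, chromosome 2R, 15248784 to 15258498, plus strand) encodes αPS3, which serves in dorsal closure, in the salivary gland and trachea, and with βν in engulfment. It was the member with the largest decrease, with 60 and 70 counts in the mutant libraries, against 258 and 238 counts in the wild-type libraries, although the mutant libraries were deeper. Its level was 0.38 and 0.48 TPM in the mutant libraries and 2.82 and 3.20 TPM in the wild-type libraries. It was thus 5.07-fold lower in the mutant (log2 fold change -2.34, SE 0.20, adjusted p = 9.48e-06 from edgeR). The conditions did not overlap in CPM or in TPM.

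*if* (FBgn0001250, chromosome X, 16752189 to 16783434, minus strand) encodes αPS2, the muscle chain that recognises the RGD motif of ligands such as tiggrin. It was close to the limit of detection in both conditions, with 9 and 14 counts in the mutant libraries, against 39 and 24 counts in the wild-type libraries. The log2 fold change was -1.84 with a wide SE of 0.43 (adjusted p = 0.00507 from edgeR). The call was lost without mutant replicate 1, where the log2 fold change was -1.41 and the adjusted p was 0.0810, so the decrease rests on few counts.

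*ItgaPS4*, a related alpha chain that is not among the 10 members, is the next tested gene to the right of *scb* on chromosome 2R, on the same strand and 262 bases away. It had 56 and 39 counts in the mutant libraries, against 81 and 79 counts in the wild-type libraries, a log2 fold change of -1.18 (SE 0.25, adjusted p = 0.00331 from edgeR). An exon of *ItgaPS4* overlaps *Trpm* on the other strand, and whether counting used strand is not given in the sources used here. Both of these neighbours were therefore called lower, while the next tested genes outside the pair, *CG8079* and *CG8152*, had log2 fold changes of 0.05 and 0.02 and were not called. The last fly alpha chain, *ItgaPS5*, was not analysed here.

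**Figure D2:**
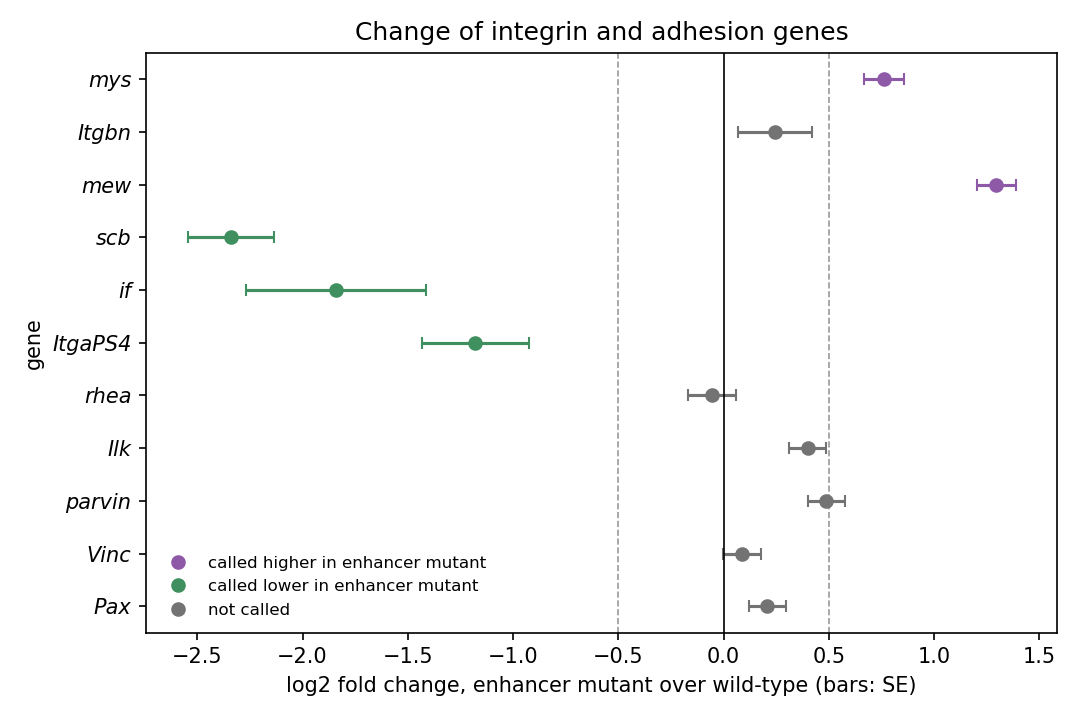
Log2 fold change of the 10 members and *ItgaPS4*, enhancer mutant over wild-type, with bars for the SE and dashed lines at the threshold of 0.5 in either direction. *mys* and *mew* lie to the right, *scb*, *if* and *ItgaPS4* to the left, and the points of *Itgbn* and the cytoplasmic genes between the dashed lines.

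The makeup of the alpha chain transcripts differed between the conditions. Summed over *mew*, *scb*, *if* and *ItgaPS4*, the alpha chains had 10.0 and 9.27 TPM in the mutant libraries and 8.96 and 9.68 TPM in the wild-type libraries, which overlapped. In CPM the same sum was 63.1 and 63.96 in the mutant libraries, against 42.7 and 42.97 in the wild-type libraries, so whether the total differed turned on the scale. *mew* took 91.3% and 90.3% of the TPM sum in the mutant libraries, against 52.5% and 50.5% in the wild-type libraries. *scb* took 3.76% and 5.19% in the mutant libraries, against 31.5% and 33.0% in the wild-type libraries. *ItgaPS4* held 4.45% and 3.71% in the mutant libraries, against 12.4% and 13.9% in the wild-type libraries, and *if* held less than 4% in every library. Shares within a library do not depend on the scaling between libraries. The ratio of *mew* to *scb* was thus 24.3 and 17.4 in the mutant libraries, against 1.67 and 1.53 in the wild-type libraries.

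**Figure D3:**
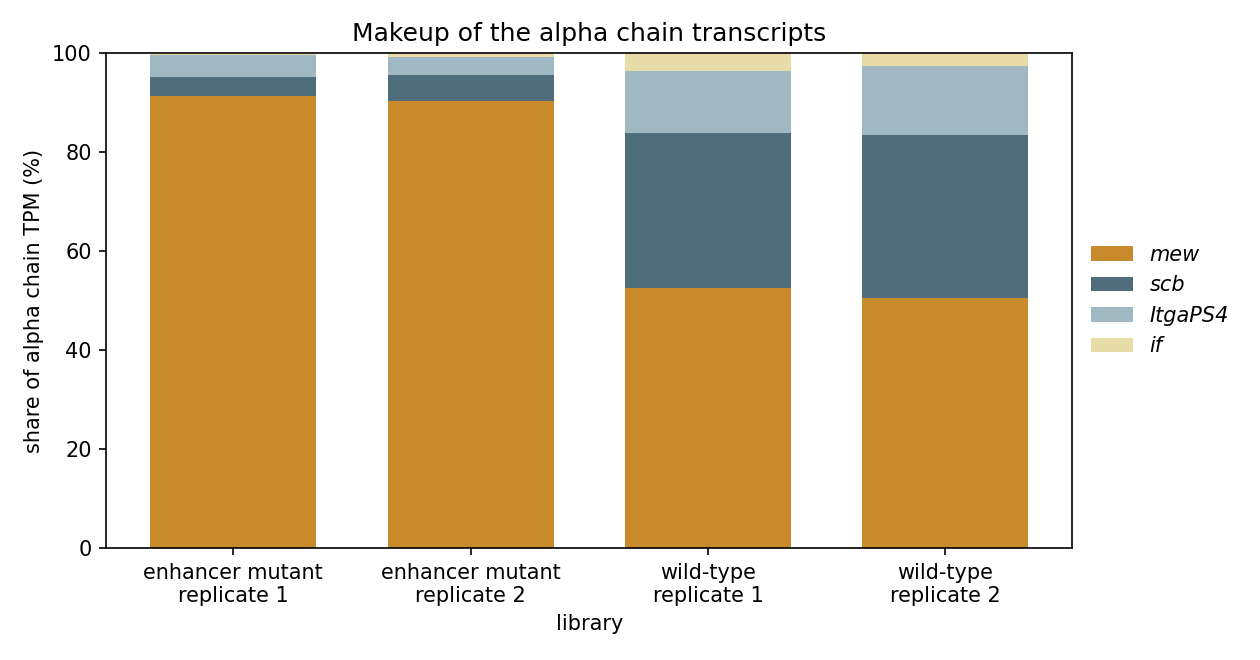
Share of each alpha chain in the summed alpha chain TPM (percent) of each library, with the 2 enhancer mutant libraries on the left. *mew* fills over 90% of the bar in the mutant libraries and 50.5% to 52.5% in the wild-type libraries, where *scb* holds 31.5% to 33.0%.

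The beta chains were more abundant than the alpha chains in every library. The summed beta chain TPM was 9.70 and 9.05 times the alpha chain TPM in the mutant libraries, against 8.24 and 7.61 times in the wild-type libraries. The ratio of *mys* to *mew* was lower in the mutant, with 10.4 and 9.81 in the mutant libraries, against 15.3 and 14.5 in the wild-type libraries.

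*rhea* (FBgn0260442, chromosome 3L, 8545001 to 8574409, plus strand) encodes talin, which binds the tail of the beta chain and links it to actin. It had 18.7 and 14.6 TPM in the mutant libraries, against 25.2 and 22.1 TPM in the wild-type libraries. On counts it was not called, with 226 ± 24.4 CPM in the mutant and 235 ± 29.2 CPM in wild-type (SD, n = 2 each; log2 fold change -0.06, 95% interval -0.31 to 0.19, adjusted p = 0.702 from edgeR). The conditions overlapped in CPM but not in TPM, where *rhea* was lower in both mutant libraries, as were 71% of all tested genes. The ratio of *mys* to *rhea* in TPM was 5.07 and 5.63 in the mutant libraries, against 2.86 and 3.20 in the wild-type libraries.

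*Ilk* (FBgn0028427, chromosome 3L, 21216901 to 21219240, plus strand) encodes integrin-linked kinase, a scaffold despite its name, and *parvin* (FBgn0052528, chromosome X, 19746041 to 19748458, plus strand) encodes its actin-binding partner. *Ilk* had 104 and 90.7 TPM in the mutant libraries and 100.3 and 105 TPM in the wild-type libraries. *parvin* had 96.6 and 90.5 TPM in the mutant libraries and 87.2 and 93.9 TPM in the wild-type libraries, so both overlapped in TPM. In CPM both mutant libraries lay above both wild-type libraries for each gene, and the adjusted p was below 0.05, but the log2 fold changes of 0.40 for *Ilk* (SE 0.089, adjusted p = 0.00388 from edgeR) and 0.49 for *parvin* (SE 0.088, adjusted p = 0.00122 from edgeR) were short of the threshold. *parvin* was called by DESeq2 (0.504), without a filter on low counts (0.53) and without mutant replicate 1 (0.53) or wild-type replicate 2 (0.52). An exon of *parvin* overlaps the same-strand gene *Alr*, so reads of that stretch are uncertain. *stck*, which encodes PINCH and completes the complex, lay beside them with a log2 fold change of 0.47 (SE 0.095, adjusted p = 0.00229 from edgeR). The ratio of *Ilk* to *parvin* in TPM was 1.08 and 1.002 in the mutant libraries and 1.15 and 1.12 in the wild-type libraries. The RNA level of *Ilk* was thus close to that of *parvin* in each library.

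*Vinc* (FBgn0004397, chromosome X, 2214347 to 2222567, minus strand) encodes vinculin, which binds talin and actin under tension. Its log2 fold change on counts was 0.09 (95% interval -0.12 to 0.29, adjusted p = 0.458 from edgeR), and in TPM it was lower in both mutant libraries. *Pax* (FBgn0041789, chromosome 2L, 19400753 to 19426596, minus strand) encodes paxillin, an adaptor that gathers kinases and regulators of small GTPases at adhesions. It had 106 and 96.9 TPM in the mutant libraries, against 117 and 126 TPM in the wild-type libraries, and on counts a log2 fold change of 0.21 (95% interval 0.01 to 0.40, adjusted p = 0.0743 from edgeR). For *Vinc* and *Pax* the sign is that of the scale used, since both were slightly higher in CPM and lower in TPM in the mutant.

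The order of the levels was similar in both conditions. In the mutant, *Vinc* was the highest and was followed by *Pax*, *Ilk*, *parvin* and *mys*, and each of these last 4 overlapped with its neighbour in the order. In wild-type the same 5 genes came in the same order, and no neighbours overlapped. *rhea*, *mew*, *Itgbn*, *scb* and *if* followed in the mutant, while in wild-type *scb* stood above *Itgbn*. The members lie on different chromosome arms. Of the 5 on chromosome X, *Vinc* is the nearest to *Notch*, at 912 kb, and *parvin* the farthest, at 16574 kb. Among the 1421 tested genes of chromosome X, 31.2% were called and 19.7% were called lower. Of the 5 members there, *mys* and *mew* were called higher and *if* lower.

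Transcript forms of the members were compared as shares of the TPM of the gene. Salmon divides reads between forms that share most of their sequence and the files carry no error for that division, so these are estimates with no test, and the forms described were picked after their values were seen. *mys* has a pair of mutually exclusive exons of 85 bases, at 8065448 to 8065532 in *mys-RA*, *mys-RC* and *mys-RD* and at 8066098 to 8066182 in *mys-RB*. *mys-RB* made up 0.52% and 0.49% of *mys* in the mutant libraries, against 2.29% and 1.93% in the wild-type libraries. Its own level was 0.49 and 0.40 TPM in the mutant libraries, against 1.64 and 1.37 TPM in the wild-type libraries. This minor form was thus lower in the mutant although the gene as a whole was higher. *mys-RA* was the main form in every library, with 73.9% and 75.1% in the mutant libraries, against 77.5% and 77.7% in the wild-type libraries. *mys-RC* made up 18.9% and 18.2% in the mutant libraries, against 13.1% and 13.8% in the wild-type libraries. The shares of *mys-RD* overlapped between the conditions.

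*mew* also differed in form. Of its 5 quantified forms, only *mew-RC* and *mew-RD* hold an exon of 27 bases, from 13223826 to 13223852. Together these forms made up 26.5% and 29.0% of *mew* in the mutant libraries, against 8.83% and 19.1% in the wild-type libraries. *mew-RD* had 71.3 and 37.3 estimated counts in the mutant libraries and 0 and 0 in the wild-type libraries. The wild-type libraries differed from each other by more than the mutant libraries did, and they held only 37.5 and 68.8 estimated counts of both forms. *mew-RB* remained the main form in every library, from 71.0% to 91.2%. Among the quantified forms, *mew-RB* alone holds a last exon of 1454 bases, from 13214409 to 13215862. The remaining quantified forms were given no reads. The shares therefore cannot separate the use of the small exon from that of the long last exon.

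For *if*, nearly all reads were given to *if-RC*, which lacks an exon of 75 bases from 16758514 to 16758588. The forms that hold this exon had at most 0.29% of *if* in any library. For *scb*, *scb-RA* made up all of the TPM in mutant replicate 1, 86.1% in mutant replicate 2, and 98.4% and 97.9% in the wild-type libraries, where the lower mutant share rests on 10.5 estimated counts of *scb-RB*. *Pax-RC* was the main form of *Pax*, with 83.9% and 81.1% in the mutant libraries, against 75.8% and 76.4% in the wild-type libraries. The short *Pax-RD* made up 7.47% and 7.51% in the mutant libraries, against 11.5% and 10.3% in the wild-type libraries. The shares of *rhea-RI*, with an exon of 26 bases, and of *parvin-RA* overlapped between the conditions.

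The other genes of integrin adhesion were taken from lists set by role. Among the other adaptors, 11 of 13 genes were tested, 2 were called higher and 2 lower, beside 12.6% higher and 15.3% lower of all tested genes, and the median log2 fold change was -0.00028. *ics*, which encodes a partner of PINCH, was higher (log2 fold change 0.75, SE 0.11, adjusted p = 0.000302 from edgeR), but not called with limma on log2(TPM + 0.5) (0.33). Its log2 TPM ratio relative to the median of all genes was 0.77. *Fit1*, a kindlin that binds the beta chain tail, passed just at the threshold (0.503), and its call was lost under 9 of 16 alternatives. *wech* (-0.83, SE 0.13, adjusted p = 0.00064 from edgeR), which links talin to ILK in fly muscle, and *by*, which encodes tensin (-0.76, SE 0.11, adjusted p = 0.000387 from edgeR), were lower. In TPM *wech* had 16.8 and 14.1 in the mutant libraries, against 42.5 and 33.1 in the wild-type libraries, and *by* had 4.38 and 3.58 in the mutant libraries, against 9.07 and 9.94 in the wild-type libraries. *Actn*, the alpha-actinin gene, had a log2 fold change of -0.00028 with a 95% interval of -0.19 to 0.19, and *Zasp66* and *Zasp67*, genes of muscle attachments, had at most 7 counts in any library and were not tested.

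Among the adhesion kinases and GTPase regulators, all 14 genes were tested, 2 were called higher and 0 lower, against 27.9% called of all tested genes. By adjusted p alone, 7 of the 14 passed, 5 higher and 2 lower, against 48.7% of all tested genes. The GTPase genes *Rap1* (log2 fold change 0.72, SE 0.11, adjusted p = 0.000582 from edgeR) and *Rac2* (0.67, SE 0.088, adjusted p = 0.000164 from edgeR) were those called. Both calls were lost with limma on log2(TPM + 0.5), where *Rap1* had 0.27 and *Rac2* 0.17. The call of *Rac2* was also lost with library sizes alone (0.47). Relative to the median of all genes in TPM, the log2 ratios were 0.71 for *Rap1* and 0.61 for *Rac2*. *Rap1*, which encodes an activator of integrins, had 356 and 372 TPM in the mutant libraries, against 314 and 287 TPM in the wild-type libraries. The focal adhesion kinase gene *Fak* had a log2 fold change of -0.02, with a 95% interval of -0.23 to 0.20.

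Of the 9 genes for matrix ligands, all were tested, 2 were called higher and 2 lower, where 27.9% of all tested genes were called in either direction, and the median log2 fold change was 0.13. *Tig*, which encodes the αPS2 ligand tiggrin, was higher (log2 fold change 0.84, SE 0.12, adjusted p = 0.000245 from edgeR), with 11.3 and 9.07 TPM in the mutant libraries, against 8.30 and 7.15 TPM in the wild-type libraries. *wb*, a laminin alpha chain gene, was also higher (0.84, SE 0.17, adjusted p = 0.00267 from edgeR) but was below 1 TPM in every library. With limma on log2(TPM + 0.5), *Tig* (0.37) and *wb* (0.17) were not called. Their log2 TPM ratios relative to the median of all genes were 0.83 for *Tig* and 0.76 for *wb*. The collagen IV genes *Col4a1* (-1.29, SE 0.16, adjusted p = 0.00011 from edgeR) and *vkg* (-0.54, SE 0.18, adjusted p = 0.0287 from edgeR) were lower. The call of *vkg* was lost under 6 of 16 alternatives. These were DESeq2, no filter on low counts, a threshold of 1.5-fold, and fits without mutant replicate 1, mutant replicate 2 or wild-type replicate 1. The laminin genes *LanA*, *LanB1* and *LanB2* were not called, with log2 fold changes of 0.15, -0.46 and 0.44.

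**Figure D4:**
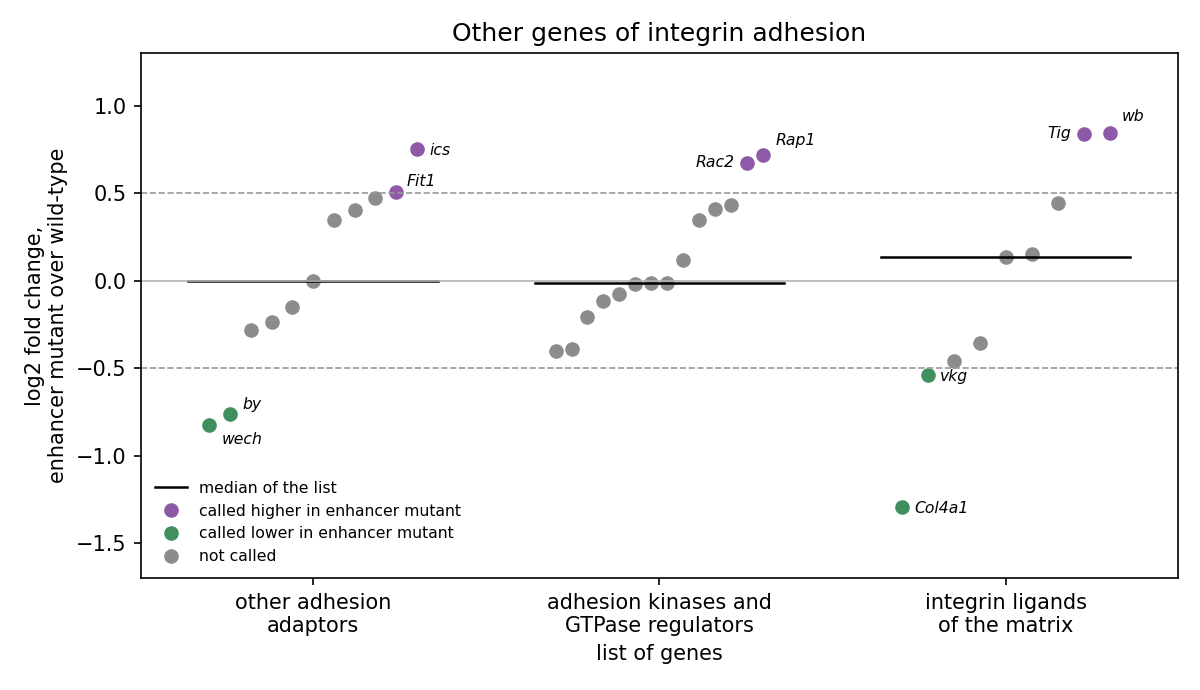
Log2 fold change, enhancer mutant over wild-type, of the tested genes of 3 related lists, ordered within each list; black bars are list medians and dashed lines the threshold of 0.5 in either direction. Called genes are named, and each list holds most of its genes between the dashed lines.

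Markers of other cell types were measured beside the members. The 5 epithelial markers summed to 10.3 and 8.88 TPM in the mutant libraries, against 22.7 and 20.8 TPM in the wild-type libraries. Of them *shg* and *crb* were called lower, *baz* (log2 fold change -0.49) and *Cad99C* (0.14) were not called, and *grh* was below 0.1 TPM in every library. The tendon marker *sr* had 2 and 0 counts in the mutant libraries, against 27 and 16 counts in the wild-type libraries. The 9 muscle markers summed to 11.98 and 10.4 TPM in the mutant libraries, against 17.1 and 16.6 TPM in the wild-type libraries, most of it *Mef2*. The 9 blood cell markers summed to 238 and 209.6 TPM in the mutant libraries, against 228 and 214 TPM in the wild-type libraries, with *crq*, *He* and *Sr-CI* called higher and *Hml* lower. The 6 neuronal markers summed to 9.24 and 9.24 TPM in the mutant libraries, against 17.2 and 13.9 TPM in the wild-type libraries. The 4 tendon markers summed to 31.7 and 27.5 TPM in the mutant libraries, against 36.8 and 34.8 TPM in the wild-type libraries, nearly all of it *Tsp*, and the 5 fat body markers stayed below 1 TPM in every library. No marker was at 0 in every library. These sums are in TPM, the scale on which the median gene was lower in the mutant. On counts *Tsp* (log2 fold change 0.13), the muscle markers *Mef2* (-0.16) and *Mlc2* (-0.36) and the neuronal *para* (0.44), *elav* (-0.33) and *nSyb* (-0.62) were not called. The tendon marker *sr* (-4.66), the neuronal *onecut* (-0.96) and the muscle markers *bt* (-1.74) and *sls* (-1.43) were called lower. The muscle marker *Act57B* (1.93) was called higher. These called markers were all below 1 TPM in every library. The part of these differences in the values of *mew*, *scb* and *if* was not tested.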

How the data were processed

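The RNA-seq libraries of S2R+ cells, 2 of the enhancer mutant and 2 of wild-type, were sequenced as paired-end reads of 150 bp. The authors quantified transcripts with Salmon 0.10.2 (version per the submitters' processing notes) on an index of dm6 transcripts, with mapping scores checked and GC bias corrected. For each transcript the authors deposited an estimated count, not normalized, and a TPM value, which the authors' tool scales by effective length. The annotation release is not given in the sources used here.

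Gene assignment of transcripts used the Ensembl gene models, whose coordinates are those of dm6 (29850 of 30070 matched; the rest held at most 0.292% of counts), and estimated counts were summed and rounded. Genes were tested with edgeR 4.0.16 (filterByExpr, TMM, glmQLFit, glmQLFTest, Benjamini-Hochberg over 8182 genes). SE is the absolute log2 fold change over the square root of F, and 95% intervals use its t distribution. Replicates differed by more than counting noise (chi-square per degree of freedom 16.7 in the mutant and 33.8 in wild-type). The fits were tested on simulated data first. Alternatives were DESeq2 1.42.0, limma 3.58.1 on log2(TPM + 0.5) and log2(TPM + 1), other scalings, filters and thresholds, the replicate number as a block and each library left out. Named genes were the members, *Notch*, the called genes of each related list (the 4 largest changes where more were called) and some others chosen after their values were seen. Members and lists were chosen with earlier results of these data known. Exons of *mew* and *parvin* overlap same-strand genes and those of *Itgbn*, *rhea*, *Pax* and *ItgaPS4* genes on the other strand, and whether counting used strand is not given in the sources used here.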

Additional observations from a re-analysis of the deposited data

How the results depend on the processing

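*mew* and *scb* kept their call in all 16 alternatives, with log2 fold changes of 0.75 to 1.34 and of -2.59 to -1.49, and *Notch* kept its call as well. Of the 10 members, 4 were called, 2 higher and 2 lower. Limma on log2(TPM + 1) called 2, 1 higher and 1 lower, limma on log2(TPM + 0.5) called 1 higher, adjusted p alone called 4 higher, and with at least 10 counts in every library, where *if* was not tested, 1 was lower. With limma on log2(TPM + 0.5) and log2(TPM + 1), *mys* (0.305 and 0.303) and *if* (-0.494 and -0.282) were not called, and the sign turned for *Itgbn* (-0.190 and -0.160), *Ilk* (-0.080 and -0.079), *Vinc* (-0.340 and -0.338) and *Pax* (-0.261 and -0.260). *rhea* was called lower with the smaller pseudocount (-0.501), and *Vinc* turned with library sizes alone (-0.108). The median log2 fold change of all genes was -0.39 with limma on log2(TPM + 0.5) and -0.36 on log2(TPM + 1). Relative to the median of all genes, log2 TPM ratios were 0.20 for *Itgbn*, 0.36 for *Ilk*, 0.10 for *Vinc*, 0.18 for *Pax* and -0.07 for *rhea*. *parvin* was called by DESeq2 (0.504), without a filter (0.529) and by adjusted p alone (0.49), and *Ilk* by adjusted p alone (0.40).

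Over all genes 2285 were called, 3549 by limma on log2(TPM + 0.5) and 3984 by adjusted p alone, and 54.9% of calls were lower, against 78.0% with library sizes alone and 92.2% and 92.0% with limma. The kinase list had 5 calls with either limma fit and 7 by adjusted p alone, and the adaptors 7 by adjusted p alone. Leaving out each library in turn gave 1 to 2 members called lower, and log2 fold changes of -2.32 to -1.41 for *if*, -0.17 to 0.079 for *rhea* and 0.47 to 0.53 for *parvin*. The sign of *rhea* turned without mutant replicate 2 and without wild-type replicate 1. The causes were not tested. Where a library is left out, the lone library of a condition is assumed to vary like the other condition.

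The labels number the replicates of both conditions 1 and 2, and nothing says that a number marks a shared batch. Same-numbered libraries had correlated deviations from their condition means (0.223 over 8182 genes, and 0.407 among 4643 better-measured genes, those whose log2 CPM averaged 5 or more). A fit blocked on replicate number called 2276 genes, 2256 of them also called without the block, and 4 members, with no member's call changed. With 9 and 14 mutant counts of *if*, and low counts of *scb-RB* and *mew-RD*, depth limits what can be said of these.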
